A study of Homo sapiens with 4 samples.

Results

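The genes described here are 10 genes of polyamine metabolism and its control, ARG2, SAT1, ODC1, AMD1, AZIN1, AZIN2, OAZ1, OAZ2, SRM and SMOX, of 58219 genes in the count table. They were taken by their symbols. ARG2 and SAT1 were chosen by their fold changes between carnosine and control in these same libraries, strong and opposite, so their own changes are given as descriptions with no test, while the other 8 belong by function. All 10 were counted well above the filter on low values, with mean counts over the 4 libraries between 349.25 for AZIN2 and 37910 for OAZ1. The libraries came from U87, an established human glioblastoma line, and RNA depleted of ribosomal RNA was sequenced from total RNA. There were 2 libraries from cells given fresh medium with 50 mM carnosine, the dipeptide of beta-alanine and histidine, and 2 from cells given the same medium with 0 mM carnosine, all extracted after 24 h. For all 4 libraries, cells were kept for 24 h before treatment began. Every library is from this single line, grown in high-glucose medium with serum, and the labels do not say whether replicates were separate cultures.

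Polyamines (putrescine, spermidine and spermine) are small, positively charged molecules that bind nucleic acids and are needed for growth, and dividing tumour cells often make more of them. Arginase yields ornithine, ornithine decarboxylase turns it into putrescine, and spermidine and spermine follow by addition of aminopropyl groups that S-adenosylmethionine decarboxylase provides. Antizymes bind ornithine decarboxylase and send it to the proteasome, antizyme inhibitors take antizyme away from it, and an acetyltransferase and oxidases break the higher polyamines down. Much of this control acts on translation and protein stability, which transcript counts do not show.

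ARG2, an arginase, was 4.97-fold higher in carnosine libraries than in controls, and SAT1, the acetyltransferase of polyamine breakdown, was 3.35-fold lower. AMD1 and AZIN2 rose 1.71-fold and 1.86-fold, the 2 of the other 8 genes that passed the test. Of all tested genes, 8.31% passed. ODC1, the entry enzyme of the pathway, was lower in both carnosine libraries but did not pass. SRM and SMOX had overlapping groups. In bulk RNA, fewer cells that carry a transcript and less of it per cell cannot be told apart.

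Promoter sequences of ARG2, SAT1 and ODC1 are shown because ARG2 and SAT1 had the largest differences of the 10 and ODC1 is the gene through which the pathway is entered. They are RefSeq windows on GRCh38.p14, each 250 bases before to 50 bases after an annotated start, read 5′ to 3′ on the gene's strand, and 7 of the 10 genes had an entry. ARG2 has 1 window (chr14:67619670-67619969, plus strand), SAT1 has 1 (chrX:23782923-23783222, plus strand), and ODC1 has an upstream one (chr2:10448278-10448577, minus strand) and a downstream one (chr2:10447963-10448262, minus strand). Capitals mark matches to 6 motifs searched on both strands.

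ARG2: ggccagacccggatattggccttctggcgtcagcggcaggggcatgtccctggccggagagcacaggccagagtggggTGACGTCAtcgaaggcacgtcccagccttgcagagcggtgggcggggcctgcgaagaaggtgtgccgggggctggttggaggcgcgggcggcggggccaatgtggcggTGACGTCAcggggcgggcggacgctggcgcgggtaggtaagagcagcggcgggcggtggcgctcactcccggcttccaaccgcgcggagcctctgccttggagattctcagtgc

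SAT1: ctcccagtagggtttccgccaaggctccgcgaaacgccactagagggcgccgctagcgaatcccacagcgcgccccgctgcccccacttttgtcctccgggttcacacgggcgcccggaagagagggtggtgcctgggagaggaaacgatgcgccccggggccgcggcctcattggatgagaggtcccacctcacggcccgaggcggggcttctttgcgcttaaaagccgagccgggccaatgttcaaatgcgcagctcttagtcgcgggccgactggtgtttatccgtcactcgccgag

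ODC1 upstream start: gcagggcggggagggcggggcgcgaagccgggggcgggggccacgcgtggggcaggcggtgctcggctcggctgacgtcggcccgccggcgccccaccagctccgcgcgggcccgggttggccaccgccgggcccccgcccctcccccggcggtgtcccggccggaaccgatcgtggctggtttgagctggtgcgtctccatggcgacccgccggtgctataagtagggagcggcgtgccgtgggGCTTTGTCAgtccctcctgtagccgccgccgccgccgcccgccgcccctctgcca

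ODC1 downstream start: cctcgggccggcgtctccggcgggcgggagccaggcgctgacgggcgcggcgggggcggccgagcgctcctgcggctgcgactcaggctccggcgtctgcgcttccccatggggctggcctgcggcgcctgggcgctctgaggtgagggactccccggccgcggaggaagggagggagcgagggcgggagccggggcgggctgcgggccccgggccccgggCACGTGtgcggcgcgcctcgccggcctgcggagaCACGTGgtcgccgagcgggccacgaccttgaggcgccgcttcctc

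The motifs were CACGTG (the E-box bound by MYC), TGTTTAC (FOXO), TGACTCA (AP-1), TGACNNNGC (the core of the antioxidant response element), TATAAA (the TATA box) and TGACGTCA (the cyclic AMP response element, CRE). The CRE was added after the ARG2 sequence had been read. ARG2 holds the CRE at 2 places, starting 172 and 64 bases before the RefSeq start. That start lies downstream of the ARG2 gene start given below, which is GENCODE's. By the GENCODE coordinates, the match nearer the RefSeq start lies inside the gene. Of 35116 promoter windows, 1.85% hold it and 0.06% hold it more than once. The downstream ODC1 window holds the E-box at 2 places, the first starting 29 bases before the start and the second just past it. An E-box stands in 7.26% of all windows and more than 1 in 0.664%, and SRM, which did not pass the test, also has 1. The upstream ODC1 window holds the antioxidant core, found in 13.35% of windows. By the GENCODE coordinates of ODC1 (chr2:10439968-10448504, minus strand), the matches in both of its windows lie inside the gene. SAT1 and AMD1 held none of the 6 motifs, and OAZ2 held the AP-1 motif (4.95% of windows). OAZ1 held the letters TATAAA (11.53% of windows), just past its RefSeq start. By the GENCODE coordinates of OAZ1 (chr19:2269509-2273490, plus strand), that match lies before the gene. Only the letters as given were searched, so variants of a motif, also of the TATA box, were not counted in any window. No window of the 7 genes held the FOXO motif (3.42% of windows). These matches describe letters in the windows, and the files hold no measure of binding.

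Gene counts summed to 57728762 and 51632970 in carnosine replicates 1 and 2, and to 71766267 and 59155538 in control replicates 1 and 2. Values below are CPM, a gene's counts relative to the total of its library, with libraries scaled by TMM, a method that sets a common level from most genes. Tests are edgeR's quasi-likelihood tests, whose p-values were adjusted by Benjamini-Hochberg across the 16340 genes in the fit, and a gene passed under 0.05. In all, 1358 genes (8.31%) passed, 645 (3.95%) higher with carnosine and 713 (4.36%) lower. The CPM values of the 2 groups did not overlap for 56.5% of tested genes. Of markers expected in glioma or astroglial cells, VIM, CD44, NES, SLC1A3 and OLIG2 were counted, GFAP had 10 and 14 counts with carnosine and 16 and 4 in controls, SOX2 had 0 to 2 counts, and S100B, AQP4 and FABP7 had 0. SLC1A3, a glutamate transporter, rose, with 137 and 188 CPM with carnosine, against 70.2 and 85.0 CPM in controls (adjusted p = 0.0203). OLIG2 and VIM were lower in both carnosine libraries and did not pass in edgeR (adjusted p = 0.0858 and 0.139), while DESeq2 called both. Of 6 markers of other cells, RBFOX3 had 0 counts, PTPRC and MBP at most 8 in any library, CD68 22 to 53 and EPCAM 62 to 102. PECAM1, an adhesion protein of endothelial cells, had 6.07 and 5.26 CPM with carnosine and 2.08 and 2.61 CPM in controls (adjusted p = 0.0215), and the part of such cells in the results was not tested.

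ARG2 (ENSG00000081181.7, chr14:67619798-67651720, plus strand, GRCh38) encodes the mitochondrial arginase, which splits arginine into ornithine and urea. It had 1177 and 1050 counts in carnosine replicates 1 and 2, against 307 and 223 in control replicates 1 and 2. In CPM these were 19.6 and 20.9 with carnosine, against 4.32 and 3.80 in controls. Both carnosine libraries lay far above both controls, and the replicates within a group lay close together. The mean was 20.2 ± 0.905 CPM with carnosine and 4.06 ± 0.366 CPM in controls (SD, n = 2 each). That is 4.97-fold higher with carnosine, a log2 fold change of 2.31 ± 0.14 (SE), and 116 of the 16340 genes had a larger one. ARG1, the liver arginase, had 0 counts in all 4 libraries, which allows up to 0.0499 and 0.0596 CPM with carnosine and 0.0422 and 0.0511 CPM in controls, taking 3 counts as the limit of a count of 0.

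Of the 2418 exonic bases of ARG2, 904 (37.4%) lie under exons of VTI1B, a vesicle SNARE gene on the opposite strand. The sources used here do not say whether reads were counted by strand, so reads from that stretch could not be assigned with certainty. VTI1B had 119 and 138 CPM with carnosine, against 110 and 117 CPM in controls, and its difference of 0.18 ± 0.11 in log2 did not pass (adjusted p = 0.359). The other members share at most 7.22% of their exonic bases with exons of the opposite strand, and those partners had at most 33 counts in any library.

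ODC1 encodes ornithine decarboxylase, the enzyme that makes putrescine. It had 202 and 270 CPM in carnosine replicates 1 and 2, against 316 and 403 CPM in control replicates 1 and 2. The carnosine libraries were both below the controls, but replicates of each group differed from each other by 34.0% with carnosine and 27.5% in controls. The means were 236.1 ± 48.5 CPM with carnosine and 359.5 ± 61.4 CPM in controls (SD, n = 2 each). The log2 fold change was -0.61 ± 0.18 (SE) and missed the threshold (adjusted p = 0.0839, edgeR). DESeq2 called it (adjusted p = 0.0122).

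AMD1 encodes S-adenosylmethionine decarboxylase, which provides the aminopropyl groups for spermidine and spermine. It had 232 and 282 CPM in carnosine replicates 1 and 2, against 147 and 153 CPM in control replicates 1 and 2. The carnosine libraries were both above the controls, and they differed from each other more than the controls did. The means were 257.0 ± 35.1 CPM with carnosine and 150.4 ± 4.25 CPM in controls (SD, n = 2 each). AMD1 rose 1.71-fold, or 0.77 ± 0.13 in log2 (SE), with an adjusted p of 0.0204 in edgeR. The call ended without control replicate 1 (adjusted p = 0.0602) and without control replicate 2 (adjusted p = 0.0538), where the log2 fold change was 0.74 and 0.80. Annotated AMD1 pseudogenes had at most 3 counts in a library.

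SRM, or spermidine synthase, uses those groups to turn putrescine into spermidine. It had 108 and 117 CPM with carnosine, against 119 and 105 CPM in controls. The groups overlapped, and the log2 fold change was 0.002 ± 0.11 (SE, adjusted p = 0.995). SMS, spermine synthase, had 253 and 283 CPM with carnosine, against 302 and 319 CPM in controls, and did not pass (log2 fold change -0.21 ± 0.11, adjusted p = 0.274).

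SAT1 (ENSG00000130066.16, chrX:23783173-23786226, plus strand, GRCh38) encodes the spermidine/spermine acetyltransferase, which marks polyamines for export or oxidation. It had 367 and 353 counts in carnosine replicates 1 and 2, against 1277 and 1524 in control replicates 1 and 2. In CPM these were 6.10 and 7.01 with carnosine, against 18.0 and 26.0 in controls. Both carnosine libraries lay far below both controls, and the controls differed from each other by 44.6%. The means were 6.56 ± 0.642 CPM with carnosine and 22.0 ± 5.67 CPM in controls (SD, n = 2 each). That is 3.35-fold lower with carnosine, a log2 fold change of -1.74 ± 0.20 (SE), and 65 of the 16340 genes had a more negative one. Without control replicate 2 the log2 fold change was -1.46, and without control replicate 1 it was -1.99. The annotation lists 9 SAT1 transcripts, 4 of them protein coding, and gene counts do not separate them.

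SMOX, spermine oxidase, turns spermine back into spermidine with release of hydrogen peroxide. It had 13.9 and 16.4 CPM with carnosine, against 14.9 and 12.8 CPM in controls. The groups overlapped, and the log2 fold change was 0.13 ± 0.15 (SE, adjusted p = 0.624). SAT2, a relative of SAT1, had 34.2 and 30.0 CPM with carnosine, against 34.0 and 38.7 CPM in controls, and did not pass (log2 fold change -0.18 ± 0.12, adjusted p = 0.384). PAOX, the peroxisomal oxidase of acetylated polyamines, had 2 and 0 counts with carnosine and 0 and 0 in controls, both groups under the limit of 3 counts. PAOX, ARG1 and MTAP below were named after their values were seen.

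**Figure D1:**
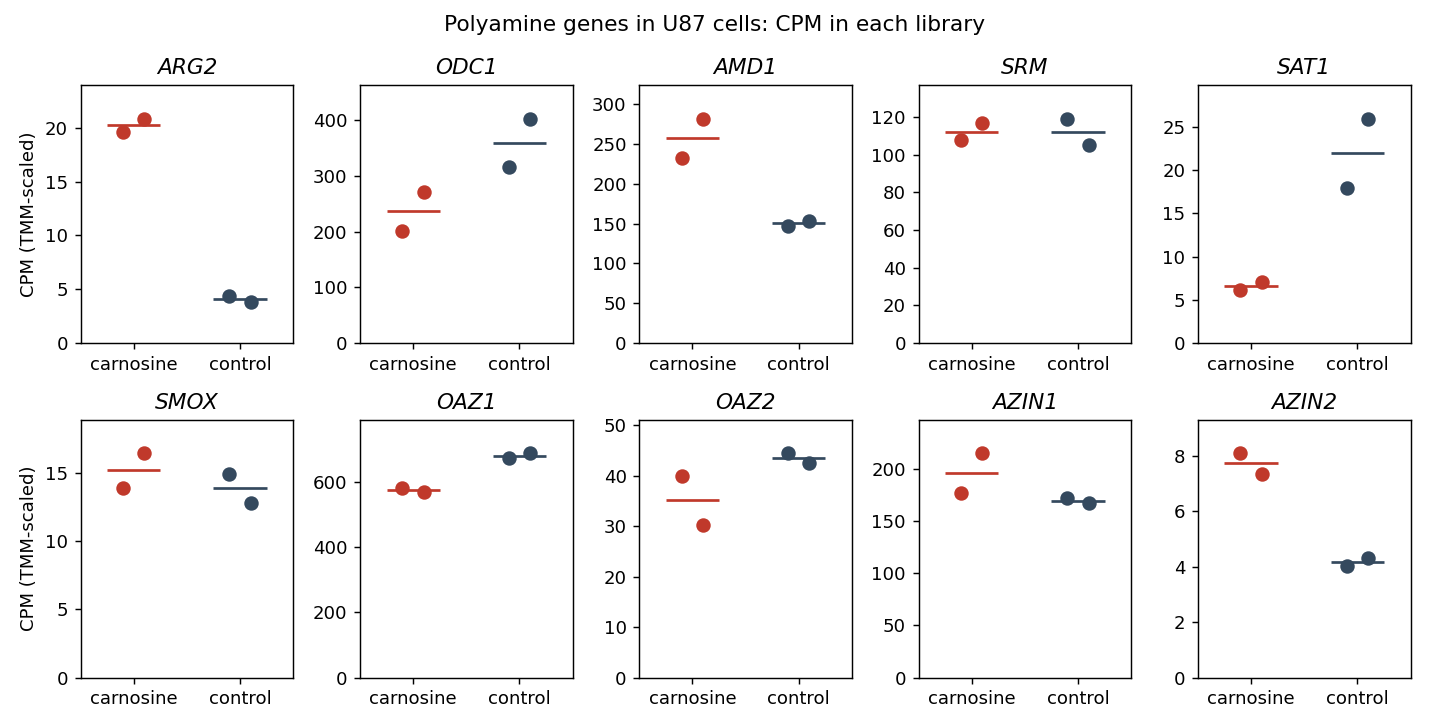
CPM (TMM-scaled, linear axis from 0) of the 10 genes in each of the 4 libraries, with points for libraries and lines for group means. ARG2, AMD1, AZIN1 and AZIN2 lie higher in both carnosine libraries, SAT1, ODC1, OAZ1 and OAZ2 lower in both, and SRM and SMOX overlap.

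OAZ1 encodes the main antizyme, whose translation needs a shift of reading frame that polyamines promote. It had 582 and 569 CPM in carnosine replicates 1 and 2, against 671 and 686 CPM in control replicates 1 and 2. Replicates of OAZ1 differed by only 2.16% with carnosine and 2.27% in controls, and both carnosine libraries were lower. The log2 fold change was -0.24 ± 0.11 (SE) and did not pass (adjusted p = 0.211).

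OAZ2, a second antizyme, had 39.9 and 30.2 CPM with carnosine, against 44.4 and 42.4 CPM in controls. The carnosine libraries were both lower, with replicate 2 the lowest, and the log2 fold change of -0.31 ± 0.14 (SE) did not pass (adjusted p = 0.222). Without carnosine replicate 1 the log2 fold change was -0.52 and passed (adjusted p = 0.0430), and without carnosine replicate 2 it was -0.13.

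AZIN1, the broadly expressed antizyme inhibitor, resembles ornithine decarboxylase but has no such activity. It had 177 and 215 CPM with carnosine, against 172 and 167 CPM in controls. Carnosine replicate 1 lay barely above the controls, and the log2 fold change of 0.21 ± 0.12 (SE) did not pass (adjusted p = 0.330). Without carnosine replicate 2 it was 0.06, and without carnosine replicate 1 it was 0.34.

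AZIN2, an antizyme inhibitor best known from brain and testis, had 8.10 and 7.37 CPM in carnosine replicates 1 and 2, against 4.02 and 4.31 CPM in control replicates 1 and 2. Both carnosine libraries lay well above both controls. The means were 7.73 ± 0.517 CPM with carnosine and 4.17 ± 0.205 CPM in controls (SD, n = 2 each). AZIN2 rose 1.86-fold, or 0.89 ± 0.17 in log2 (SE), with an adjusted p of 0.0279 in edgeR. The call ended without control replicate 1 (adjusted p = 0.0966), without control replicate 2 (0.0705) and without carnosine replicate 1 (0.0525), where the log2 fold change was 0.84, 0.94 and 0.82.

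Among the 8 genes that were not picked for their change, 2 rose, 0 fell and 6 did not pass, 25% against 8.31% of all genes tested. The number of genes is small, and neither call held with either control left out. In those fits, which keep 1 control, fewer of all tested genes passed as well. Their median log2 fold change was 0.07, against 0.0009 over all genes tested. At an unadjusted p under 0.05 there were 3 of the 8, with ODC1 added, where 27.4% of all tested genes had such a p. The groups did not overlap for 6 of the 8, that is for all but SRM and SMOX, where 56.5% of all tested genes did not.

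Levels of different genes can be compared only per length, here as CPM per kilobase of merged exons. With carnosine OAZ1 was the most abundant of the 10, with a mean of 167.5, followed by ODC1 at 79.5, SRM at 59.2, AMD1 at 36.6 and AZIN1 at 30.5. ARG2 followed at 8.36, then SMOX at 5.14, OAZ2 at 4.57, SAT1 at 2.62 and AZIN2 at 1.18. Libraries of AMD1 and AZIN1 overlapped there, as did those of SMOX and OAZ2, and all other neighbours in that order were apart. In controls OAZ1 stood at 197.5, ODC1 at 121, SRM at 59.1, AZIN1 at 26.4 and AMD1 at 21.4. SAT1 followed at 8.79, OAZ2 at 5.66, SMOX at 4.70, ARG2 at 1.68 and AZIN2 at 0.635, and each gene's 2 control libraries stood clear of those of its neighbours. ARG2 thus stood sixth with carnosine and ninth in controls, and SAT1 ninth with carnosine and sixth in controls. Merged exons include exons of rare transcripts, so these levels understate genes with many unused exons.

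**Figure D2:**
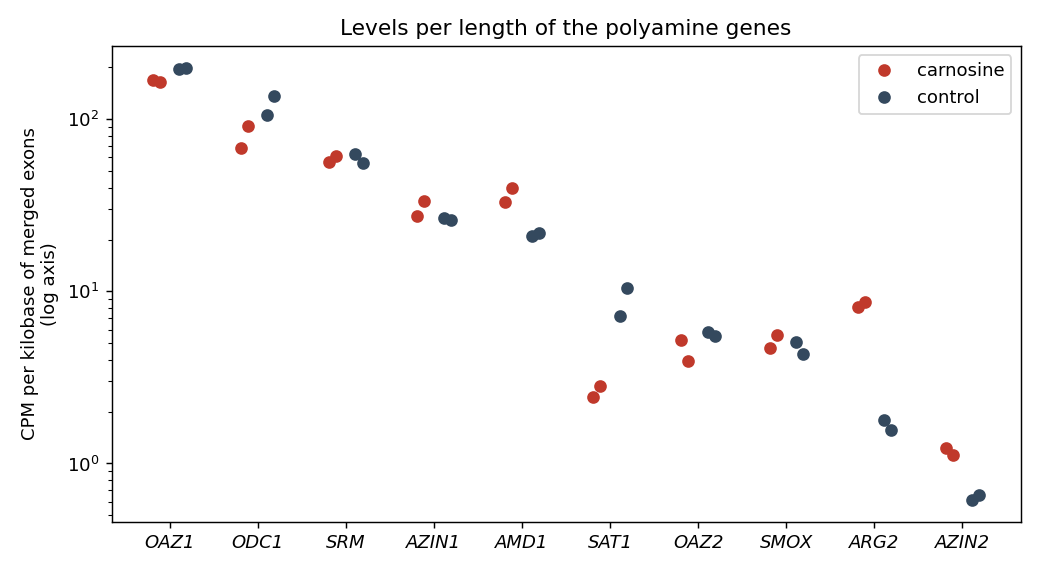
CPM per kilobase of merged exons (log axis) of the 10 genes, ordered by their mean in controls, with points for the 2 carnosine and 2 control libraries of each gene. ARG2 lies between 8.09 and 8.62 with carnosine and between 1.57 and 1.79 in controls, and SAT1 between 2.44 and 2.81 with carnosine and between 7.19 and 10.4 in controls.

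**Figure D3:**
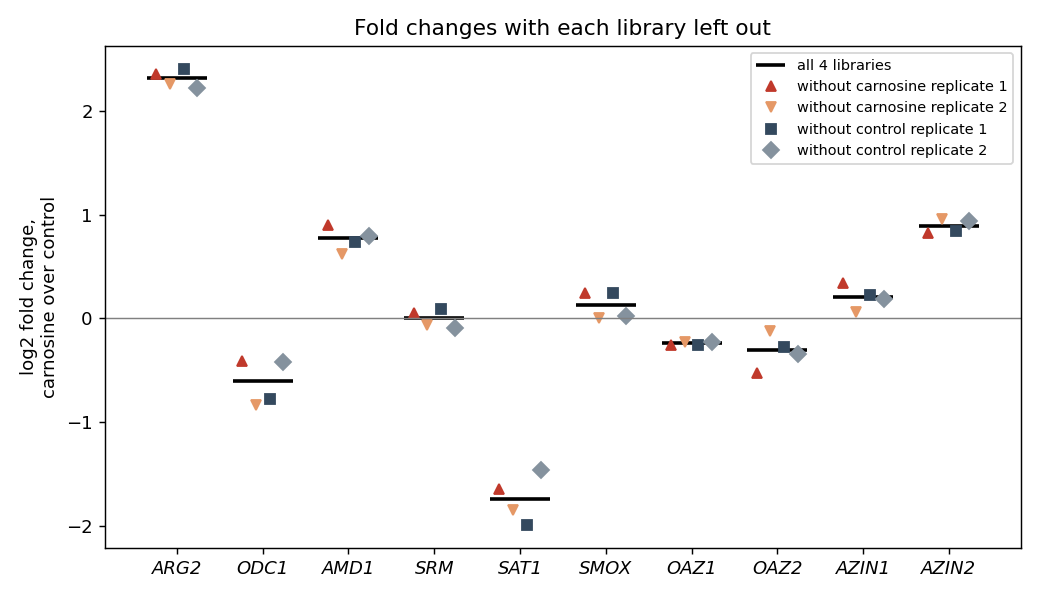
Log2 fold change, carnosine over control, of the 10 genes with all 4 libraries (black lines) and with each library left out in turn (symbols). ARG2 stays between 2.22 and 2.41, SAT1 between -1.99 and -1.46, AMD1 between 0.62 and 0.90 and AZIN2 between 0.82 and 0.95, while SRM lies on both sides of 0.

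Ratios of counts within a library do not depend on how libraries are scaled. The ratio of antizyme inhibitor counts (AZIN1 plus AZIN2) to antizyme counts (OAZ1 plus OAZ2) was 0.298 and 0.371 in carnosine replicates 1 and 2, against 0.246 and 0.235 in control replicates 1 and 2. Both carnosine libraries were higher, by 1.39-fold on the means, and the spread was wider with carnosine. The ratio rests mostly on AZIN1 and OAZ1, neither of which passed. In carnosine replicate 1, AZIN1 had 10635 counts and AZIN2 487, and OAZ1 had 34977 and OAZ2 2400. These counts were not divided by gene length, so the ratio is compared only between libraries. An exact two-sided permutation test of 2 against 2 libraries cannot give a p below 0.333, so that test of a ratio could not pass, and no other test of the ratios was run.

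The ratio of SAT1 to SMOX counts was 0.439 and 0.427 with carnosine, against 1.20 and 2.03 in controls. Per kilobase of exons, SAT1 stood below SMOX in both carnosine libraries and above it in both controls. The ratio of ARG2 counts to counts of OAT, the mitochondrial enzyme that takes ornithine towards proline and glutamate, was 0.144 and 0.141 with carnosine, against 0.0383 and 0.0308 in controls. It was 4.13-fold higher with carnosine on the means. These 2 ratios hold a gene chosen for its change and are descriptions. OAT itself had 136 and 147 CPM with carnosine, against 113 and 123 CPM in controls, and did not pass (log2 fold change 0.26 ± 0.11, adjusted p = 0.166).

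**Figure D4:**
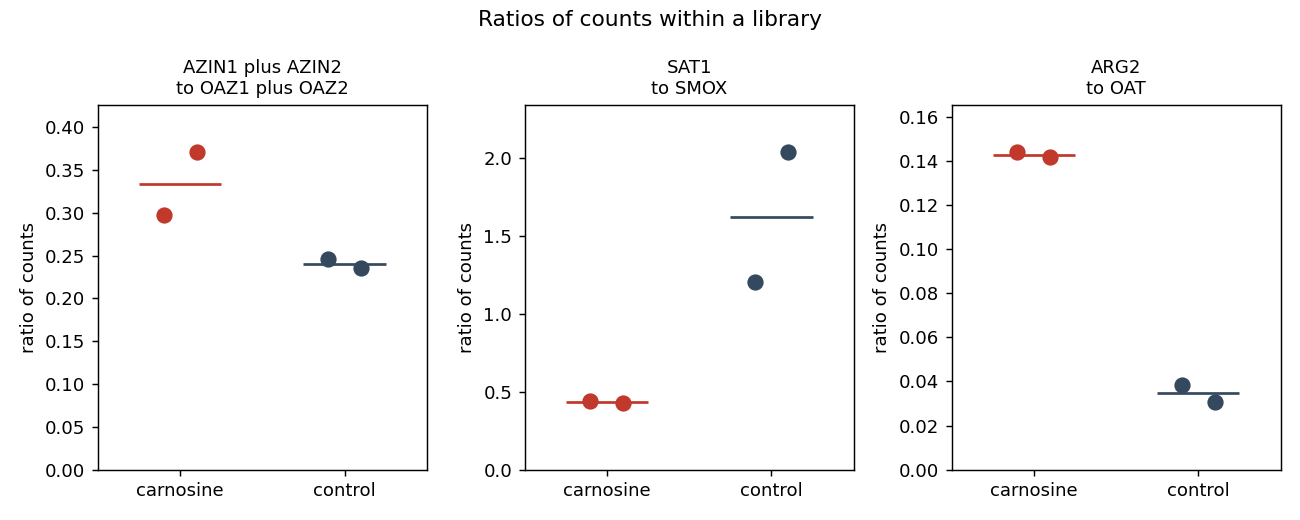
Ratio of counts within each library (linear axes from 0) for antizyme inhibitors to antizymes, SAT1 to SMOX and ARG2 to OAT, with points for libraries and lines for group means. The 2 carnosine libraries lie above the 2 controls in the left and right panels and below them in the middle.

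Around these 10 genes, 5 lists of related genes held 42 tested genes, of which 0 rose and 5 fell (11.9% called, against 8.31% of all genes). The median log2 fold change of the 42 was -0.04. Among the 5 falls, those of ASL and MTR still passed with either control left out, and the calls of EIF5A2, GAMT and NAGS ended. In those fits, which keep 1 control, fewer of all tested genes passed than with all 4 libraries. ASL and MTR passed in each of the 4 fits that leave out a library.

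The list around arginine, ornithine and proline held 3 falls and 0 rises among 14 tested genes, with a median log2 fold change of -0.02. That is 21.4% called, against 8.31% of all tested genes. ASL, which releases arginine from argininosuccinate, had 15.1 and 17.4 CPM with carnosine, against 30.5 and 29.7 CPM in controls. It fell by 0.89 ± 0.12 on the log2 scale (SE, adjusted p = 0.0142), and the libraries of the groups were well apart. NAGS, the mitochondrial maker of N-acetylglutamate for the urea cycle, had 7.25 and 8.98 CPM with carnosine, against 13.9 and 14.4 CPM in controls (log2 fold change -0.80 ± 0.15, adjusted p = 0.0295). GAMT, of creatine synthesis, had 13.8 and 15.8 CPM with carnosine, against 23.6 and 22.1 CPM in controls (log2 fold change -0.63 ± 0.12, adjusted p = 0.0320). For all 3 genes both carnosine libraries were lower than both controls. The calls of NAGS and GAMT ended without carnosine replicate 1 (adjusted p = 0.0503 and 0.0620), control replicate 1 (0.0579 and 0.119) or control replicate 2 (0.0778 and 0.0760). SLC7A1, the main arginine importer, had overlapping groups, with 246 and 213 CPM with carnosine and 253 and 206 CPM in controls.

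In the methionine cycle and the salvage of methylthioadenosine, the by-product of spermidine and spermine synthesis, 1 of 12 tested genes fell and 0 rose. The median was -0.09, and the 8.33% called was near the 8.31% of all tested genes. MTR, methionine synthase, had 55.4 and 60.9 CPM with carnosine, against 94.2 and 97.3 CPM in controls, and fell by 0.72 ± 0.10 on the log2 scale (SE, adjusted p = 0.0158). Its groups were well apart. MAT2A, which makes the S-adenosylmethionine that AMD1 uses, had 151 and 113 CPM with carnosine, against 201 and 194 CPM in controls, and did not pass (adjusted p = 0.0612). It passed in DESeq2 (adjusted p = 0.00770), in edgeR without carnosine replicate 1 (log2 fold change -0.81, adjusted p = 0.00914) and in edgeR with no filter on low counts. MTAP, the phosphorylase that opens this salvage, had 0 counts in all 4 libraries, as did CDKN2A and CDKN2B, its neighbours on chromosome 9.

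Of 4 genes around hypusine, the amino acid that spermidine provides to the translation factor eIF5A, 1 fell and 0 rose, with a median of -0.28. The list is small, and 25% of it passed, against 8.31% of all tested genes. EIF5A2, the paralogue of EIF5A, had 13.4 and 12.6 CPM with carnosine, against 17.9 and 19.7 CPM in controls, and fell by 0.53 ± 0.12 on the log2 scale (SE, adjusted p = 0.0457). Leaving out a library, whichever it was, ended that call (adjusted p between 0.0617 and 0.234), as did upper-quartile scaling, total counts only and limma-voom. EIF5A had overlapping groups, with 620 and 789 CPM with carnosine and 678 and 724 CPM in controls. DHPS, another of the 4, had 40.2 and 41.7 CPM with carnosine, against 51.4 and 53.8 CPM in controls. It did not pass in edgeR (log2 fold change -0.36 ± 0.09, adjusted p = 0.0609) or limma-voom, while DESeq2 called it (adjusted p = 0.0471).

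Of 9 tested genes of polyamine transport, 0 passed in edgeR, 2 had an unadjusted p under 0.05 (27.4% of all tested genes did) and the median was 0.09. Those were ATP13A2, a lysosomal polyamine exporter, with 34.3 and 26.4 CPM with carnosine, against 53.0 and 41.0 CPM in controls (adjusted p = 0.0666), and SLC12A8, with 33.7 and 23.1 CPM with carnosine, against 18.9 and 15.2 CPM in controls (adjusted p = 0.0680). DESeq2 called both, as did edgeR with no filter on low counts, and limma-voom called neither. In edgeR, ATP13A2 passed without carnosine replicate 1 (adjusted p = 0.0224) or control replicate 2 (0.0300), and SLC12A8 passed without carnosine replicate 2 (0.00767). Of the most counted, CAV1, the caveola protein, differed by 0.22 ± 0.13 in log2 (adjusted p = 0.312), and ATP13A3, a polyamine uptake pump, by 0.03 ± 0.12 (adjusted p = 0.895), and neither passed. Of the remaining polyamine enzymes, 3 of 7 were tested (SMS, SAT2 and OAZ3), and 0 passed in edgeR, DESeq2 or limma-voom, with 0 at an unadjusted p under 0.05.

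**Figure D5:**
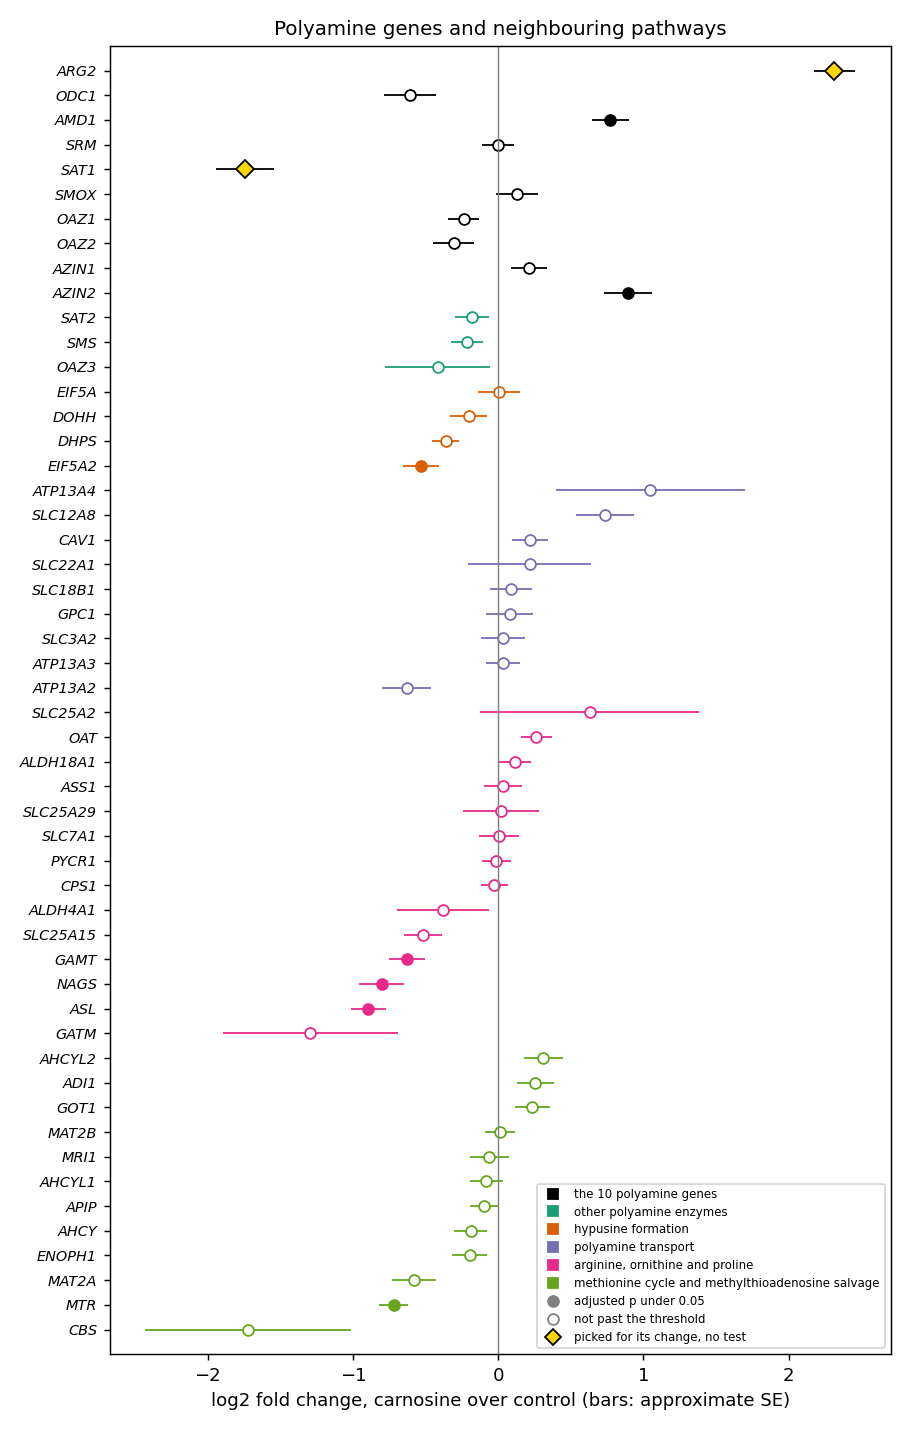
Log2 fold change, carnosine over control, with approximate SE, of the 10 genes and of the 42 tested genes of the 5 lists. Filled points passed at an adjusted p under 0.05, open points did not, and diamonds are ARG2 and SAT1, which were picked for their change.

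The genes whose pattern over the 4 libraries was nearest to that of ARG2, by Euclidean distance of log2 CPM centred on each gene's mean, were NFE2 (distance 0.236), GRIN2A (0.279), PIK3R3 (0.338), CEMIP (0.424) and DIO2 (0.462), out of 11967 genes with a mean count of at least 100. Their log2 fold changes lay between 2.05 for DIO2 and 2.52 for GRIN2A. Nearest to SAT1 were the unnamed gene ENSG00000258976 (0.258), CFAP45 (0.316), FAM86JP (0.326), the unnamed gene ENSG00000267577 (0.356) and MYOSLID (0.366), with log2 fold changes between -1.92 for FAM86JP and -1.39 for MYOSLID. With 4 libraries such likeness says little beyond a change of like size.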

How the data were processed

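The authors deposited whole-number raw counts of each gene, not normalized, in 1 column per library. The submitters' processing notes name HISAT2 2.1.0, HTSeq 0.6.1, bcl2fastq 2.17.0 and the build hg38. The sources used here do not give the annotation, the strand setting or the treatment of reads with several matches. Column names equal the sample titles, with 0 columns of other samples and 0 rows of no gene.

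Genes were kept by edgeR's filterByExpr (a minimum count of 10 in 2 libraries and a total of 15), which left 16340 genes, and TMM gave scaling factors of 1.04 and 0.976 for carnosine and 0.991 and 0.992 for controls. edgeR 4.0.16 in R 4.3.3 fitted group as the only term (quasi-likelihood F test, two-sided, 2 residual degrees of freedom). The SE is the absolute log2 fold change divided by the square root of F and is approximate. Alternatives were other scalings and filters, DESeq2 1.42.0, limma-voom (limma 3.58.1), a replicate term and each library left out. The edgeR, DESeq2 and limma steps were tested on simulated counts.

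Exon lengths and overlaps come from GENCODE 29 (GRCh38), matched by identifier for 57881 of 58219 genes, and promoters from RefSeq. The genes and lists, and the rule for named genes (the 10 members; up to 6 passing genes of each list, or the 2 most counted; the 5 nearest patterns to ARG2 and to SAT1), were chosen with earlier results of these data known. DHPS, MAT2A, OAT, SLC7A1, SLC25A15, EIF5A, ATP13A2, SLC12A8, VTI1B, CDKN2A, CDKN2B, OAZ3, PECAM1, SLC1A3, OLIG2 and VIM lie outside that rule. From the lists, 1 gene is not reported here and is in none of their counts. Replicates are separate samples in the labels, so p-values measure the spread between them, which may be technical. They were not copies of a library, since the chi-square of their counts was 39.7 (carnosine) and 25.7 (control) times its degrees of freedom. Limits from 3 counts cover counting error only.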

Additional observations from a re-analysis of the deposited data

How the results depend on the processing

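ARG2, SAT1, ODC1, AMD1, AZIN1, AZIN2, OAZ1, OAZ2 and SMOX kept the direction of their difference under every scaling, filter, tool and left-out library tried, and SRM, whose groups overlap, turned to -0.0011 (log2) with no filter on low counts. With libraries left out in turn, the log2 fold change lay between 2.22 and 2.41 for ARG2, -1.99 and -1.46 for SAT1, -0.84 and -0.41 for ODC1, 0.62 and 0.90 for AMD1, 0.06 and 0.34 for AZIN1, 0.82 and 0.95 for AZIN2, -0.26 and -0.23 for OAZ1, -0.52 and -0.13 for OAZ2, -0.090 and 0.091 for SRM, and 0.0006 and 0.24 for SMOX. In the same fits, which have 1 residual degree of freedom and take the spread within a group from the other group alone, 505 to 1595 genes passed in all, 0 to 3 of the 8 genes not picked for their change, and 2 to 6 of the 42 pathway genes. ODC1 passed without carnosine replicate 2 (adjusted p = 0.0158). The carnosine over control ratio lay between 1.24 and 1.54 for antizyme inhibitors to antizymes, 0.213 and 0.360 for SAT1 to SMOX, and 3.72 and 4.63 for ARG2 to OAT.

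All genes called numbered 3145 with no filter on low counts and 2187 in DESeq2, against 1358, and pathway genes 11 and 10, against 5. ODC1 passed with no filter and in DESeq2, at log2 fold changes of -0.61 and -0.60. The causes were not tested. Replicate numbers are shared between the groups by number alone. Deviations of same-numbered libraries correlated with r = 0.286 across genes. With a replicate block, which leaves 1 residual degree of freedom, 5767 genes passed, 35.3% of all genes tested. Among them were 5 of the 8 genes (ODC1 at -0.61, OAZ1 at -0.24 and OAZ2 at -0.32 in addition) and 18 of the 42 pathway genes. With 2 libraries a group, ARG2, SAT1 and AZIN2 rest on the fewest counts of the 10 together with SMOX, and the changes of the genes that missed the threshold are not shown to be absent.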
